A study of Mus musculus with 6 samples.

Results

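The 9 genes described here encode receptor chains through which blood cell precursors read growth factors. Kit is the receptor of stem cell factor, Flt3 that of Flt3 ligand, Csf1r that of macrophage colony-stimulating factor, Csf3r that of granulocyte colony-stimulating factor and Epor that of erythropoietin. Csf2ra and Csf2rb are the alpha chain and the shared beta chain of the receptor for granulocyte-macrophage colony-stimulating factor. Il7r is the alpha chain of the interleukin 7 receptor, and Il1rl1 encodes ST2, the chain that binds interleukin 33. The receptors were chosen by name, and all 9 were found, with the column headings KIT, FLT3, CSF1R, CSF2RA, CSF2RB, CSF3R, EPOR, IL7R and IL1RL1, among the 18011 gene symbols of the deposited tables, in each of 6 samples. The samples were lineage-negative (Lin-) mouse cells, a fraction depleted of mature blood cells that holds stem and progenitor cells, from 3 mice labelled Stag2 KO (KO1, KO2 and KO3) and 3 labelled Stag2 wt (WT1, WT2 and WT3). Cohesin, of which Stag2 is one part, is a protein ring that pairs sister chromatids and shapes loops of chromatin. For either genotype the labels give no allele, driver of deletion, strain, age or treatment. Values given in threes below follow the order KO1, KO2, KO3 and WT1, WT2, WT3. The comparison asks in which cell classes the transcripts of these receptors differ between the genotypes.

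Kit, Flt3 and Csf1r are receptor tyrosine kinases, whereas the cytokine receptor chains Csf2ra, Csf2rb, Csf3r, Epor and Il7r carry no kinase of their own and signal through Janus kinases and STAT proteins. Il1rl1 belongs to the interleukin 1 receptor family and signals through the adaptor Myd88. In bone marrow, Kit marks stem cells and early progenitors of most lineages, Flt3 marks multipotent progenitors primed for lymphoid and dendritic fates, and Il7r is required for lymphoid development. Csf1r, Csf2ra and Csf3r act in the monocyte and granulocyte lineages, Epor in red cell precursors, and Il1rl1 in basophils, mast cells and innate lymphoid cells.

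The kept cells numbered 4315, 2385 and 3639 for the KO and 2412, 4258 and 6407 for the wt samples, with 15555586 to 34089480 unique molecular identifiers (UMIs, counted transcripts) per sample. Median UMIs per kept cell were 5720 to 5936 in the KO samples and 4287.5, 4868 and 3471 in the wt samples. At most 48 cell identifiers were shared by any pair of samples. Stag2 itself stood at 24.7, 23.6 and 19.7 CPM in the KO samples, against 54.2, 42.9 and 43.7 CPM in the wt samples, a log2 fold change of -1.05 ± 0.12 (SE), edgeR adjusted p = 6.14e-04; the labels do not say which exons were removed, so reads of the 3' end need not report the deletion. Cells were clustered without the 9 receptor genes, and 29 of 32 clusters were named from marker lists, which gave 12 classes. Tests covered the 9 classes that had 20 cells or more from each sample: haematopoietic stem cells and multipotent progenitors (HSC/MPP), lymphoid progenitors, granulocyte progenitors, monocytes, dendritic cells, basophils/mast cells, early erythroid cells, megakaryocytes and T/NK cells, each name meaning cells like that type. The cells of the basophil/mast cell class fell into different clusters in the genotypes: 404, 803 and 1256 wt cells but 4, 7 and 4 KO cells were in cluster 0, and 629, 355 and 636 KO cells but 10, 3 and 2 wt cells in cluster 2. Monocytes were split unevenly too: cluster 5 held 123, 119 and 105 KO and 163, 280 and 385 wt cells, cluster 12 held 46, 37 and 35 KO and 89, 249 and 302 wt cells, and cluster 27, led by Lyz2 and Fn1, held 46, 67 and 25 KO and 10, 11 and 17 wt cells. Levels are given in CPM, a gene's UMIs relative to all UMIs of a class in a sample, scaled by TMM factors where the class was tested, and a level of 1 receptor is compared only across classes and samples. The code in the sample titles starts with XA for the 3 KO samples and WT1 and with other letters for WT2 and WT3, and the labels do not say what it marks.

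The receptors lie at separate loci of the mouse genome. In GRCm38, Kit lies at chr5:75574916-75656722 and Flt3 at chr5:147330741-147400489, Csf2ra at chr19:61223957-61228429, Csf3r at chr4:126024550-126044440, Epor at chr9:21958897-21963506 and Il1rl1 at chr1:40429570-40465415. Il7r at chr15:9505788-9530176 and Csf2rb at chr15:78325752-78353847 share chromosome 15. Flt3, Csf2ra, Epor and Il7r are on the minus strand and the others on the plus strand. The annotation places the antisense gene Gm26597 over Flt3, and the sources used here do not give the strand setting of the counting. Csf2rb has a close relative next to it, Csf2rb2, at chr15:78282507-78305721. Of the 50-base words of its annotated transcript, 18.4% also occur in Csf2rb2, but 0% of those in its last 500 bases, the end that a 3' library reads.

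The promoter windows of the receptors that differed most within cell classes are shown because the tests below concern the transcripts that start there. Each window runs from 250 bases before to 50 after an annotated start, 5′ to 3′ on the gene's strand (RefSeq, GRCm38.p6), with matches to 3 motifs in capitals: the GATA factor motif AGATAA, the PU.1 motif GAGGAA and the RUNX motif TGTGGT, each searched on both strands. Of 32851 promoter windows in the table, 11.2% hold the GATA letters, 28.3% the PU.1 letters and 16.8% the RUNX letters. Windows were found for 7 of the 9 receptors, and those of Csf1r and Csf2rb are not shown. The Flt3 window, chr5:147400440-147400739 on the minus strand, holds none of the 3 motifs. The Il7r window, chr15:9529827-9530126 on the minus strand, holds the RUNX letters just after the start. The Csf3r window, chr4:126024409-126024708 on the plus strand, holds the PU.1 letters at base -86 from the start. Il1rl1 has annotated starts at 2 places: the upstream window, chr1:40429320-40429619, holds the GATA letters at -217 and the PU.1 letters at 27, and the downstream window, chr1:40439379-40439678, holds the GATA letters at -103 and the RUNX letters at -6, both on the plus strand. A match describes the letters in the window and not a bound site.
Flt3: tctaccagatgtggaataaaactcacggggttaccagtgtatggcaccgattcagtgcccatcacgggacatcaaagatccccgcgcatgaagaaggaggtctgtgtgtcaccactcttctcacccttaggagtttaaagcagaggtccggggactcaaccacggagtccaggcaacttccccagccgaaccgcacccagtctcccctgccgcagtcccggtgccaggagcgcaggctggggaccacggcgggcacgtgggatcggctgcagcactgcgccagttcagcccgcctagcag
Il7r: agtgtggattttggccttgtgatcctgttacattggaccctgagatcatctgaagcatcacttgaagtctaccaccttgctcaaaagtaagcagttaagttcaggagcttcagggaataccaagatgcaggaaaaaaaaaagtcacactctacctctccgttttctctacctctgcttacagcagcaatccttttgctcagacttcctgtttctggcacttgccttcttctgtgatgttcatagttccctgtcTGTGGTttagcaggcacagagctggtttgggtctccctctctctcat
Csf3r: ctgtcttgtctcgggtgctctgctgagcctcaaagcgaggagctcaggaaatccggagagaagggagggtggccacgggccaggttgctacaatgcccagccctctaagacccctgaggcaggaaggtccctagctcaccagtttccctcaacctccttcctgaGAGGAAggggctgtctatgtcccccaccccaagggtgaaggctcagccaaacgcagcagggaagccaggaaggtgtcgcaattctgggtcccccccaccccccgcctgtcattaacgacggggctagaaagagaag
Il1rl1 upstream start: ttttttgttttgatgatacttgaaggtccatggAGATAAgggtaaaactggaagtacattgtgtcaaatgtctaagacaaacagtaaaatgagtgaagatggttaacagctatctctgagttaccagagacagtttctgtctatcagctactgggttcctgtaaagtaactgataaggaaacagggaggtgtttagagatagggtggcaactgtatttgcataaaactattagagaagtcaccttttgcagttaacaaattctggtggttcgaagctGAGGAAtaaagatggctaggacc
Il1rl1 downstream start: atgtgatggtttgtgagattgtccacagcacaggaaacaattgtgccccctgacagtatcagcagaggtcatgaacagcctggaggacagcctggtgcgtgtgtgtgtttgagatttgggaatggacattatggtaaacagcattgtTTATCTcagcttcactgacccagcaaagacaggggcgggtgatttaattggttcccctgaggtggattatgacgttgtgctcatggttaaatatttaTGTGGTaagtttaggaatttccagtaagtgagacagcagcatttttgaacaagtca

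In the wt samples each receptor was detected mainly in a few classes (mean ± SD over 3 samples, described without a test). Kit was highest in the HSC/MPP class at 121 ± 16.1 CPM, then in early erythroid cells at 81.5 ± 2.43 and megakaryocytes at 66.5 ± 13.8 CPM, the ranges of the last pair overlapping. Flt3 was highest in lymphoid progenitors at 258 ± 18.2 CPM, followed by dendritic cells at 110.4 ± 12.2, HSC/MPP cells at 91.4 ± 18.3 and monocytes at 63.4 ± 10.2 CPM. Dendritic and HSC/MPP cells did not differ beyond their spread in Flt3, nor did HSC/MPP cells and monocytes. Il7r was found in T/NK cells at 83.9 ± 1.84 CPM and lymphoid progenitors at 75.5 ± 16.1 CPM, with overlapping ranges, and in basophils/mast cells (44.5 ± 5.675 CPM) and dendritic cells (43.4 ± 4.04 CPM), again overlapping. The remaining 5 tested classes held Il7r at means of 2.86 CPM or less.

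Among the myeloid receptors, Csf1r was highest in monocytes at 141 ± 25.4 CPM, with 41.5 ± 7.46 CPM in dendritic cells. Inside the monocyte class, cluster 12, which Ear2 and Fcgr4 lead, held Csf1r at 557, 728 and 683 CPM in the wt samples. Csf2ra was the most widespread receptor, with more than the filter's minimum in all 9 classes, from 6.155 ± 3.32 CPM in T/NK cells to 87.3 ± 9.48 CPM in monocytes, whose range overlapped that of dendritic cells. Its partner Csf2rb was highest in basophils/mast cells at 261 ± 11.6 CPM, with 51.4 ± 6.66 CPM in dendritic cells. Csf3r was found at 39.9 ± 9.37 CPM in the HSC/MPP class and 33.7 ± 3.35 CPM in granulocyte progenitors, whose ranges overlapped. Epor stood at 54.96 ± 7.56 CPM in early erythroid cells and 15.1 ± 4.57 CPM in megakaryocytes, and at 2.44 CPM or less in the other 7 tested classes. Il1rl1 stood at 27.7 ± 4.17 CPM in basophils/mast cells and 18.7 ± 1.43 CPM in early erythroid cells. The plot of levels by class shows the 6 samples of every receptor.

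**Figure D1:**
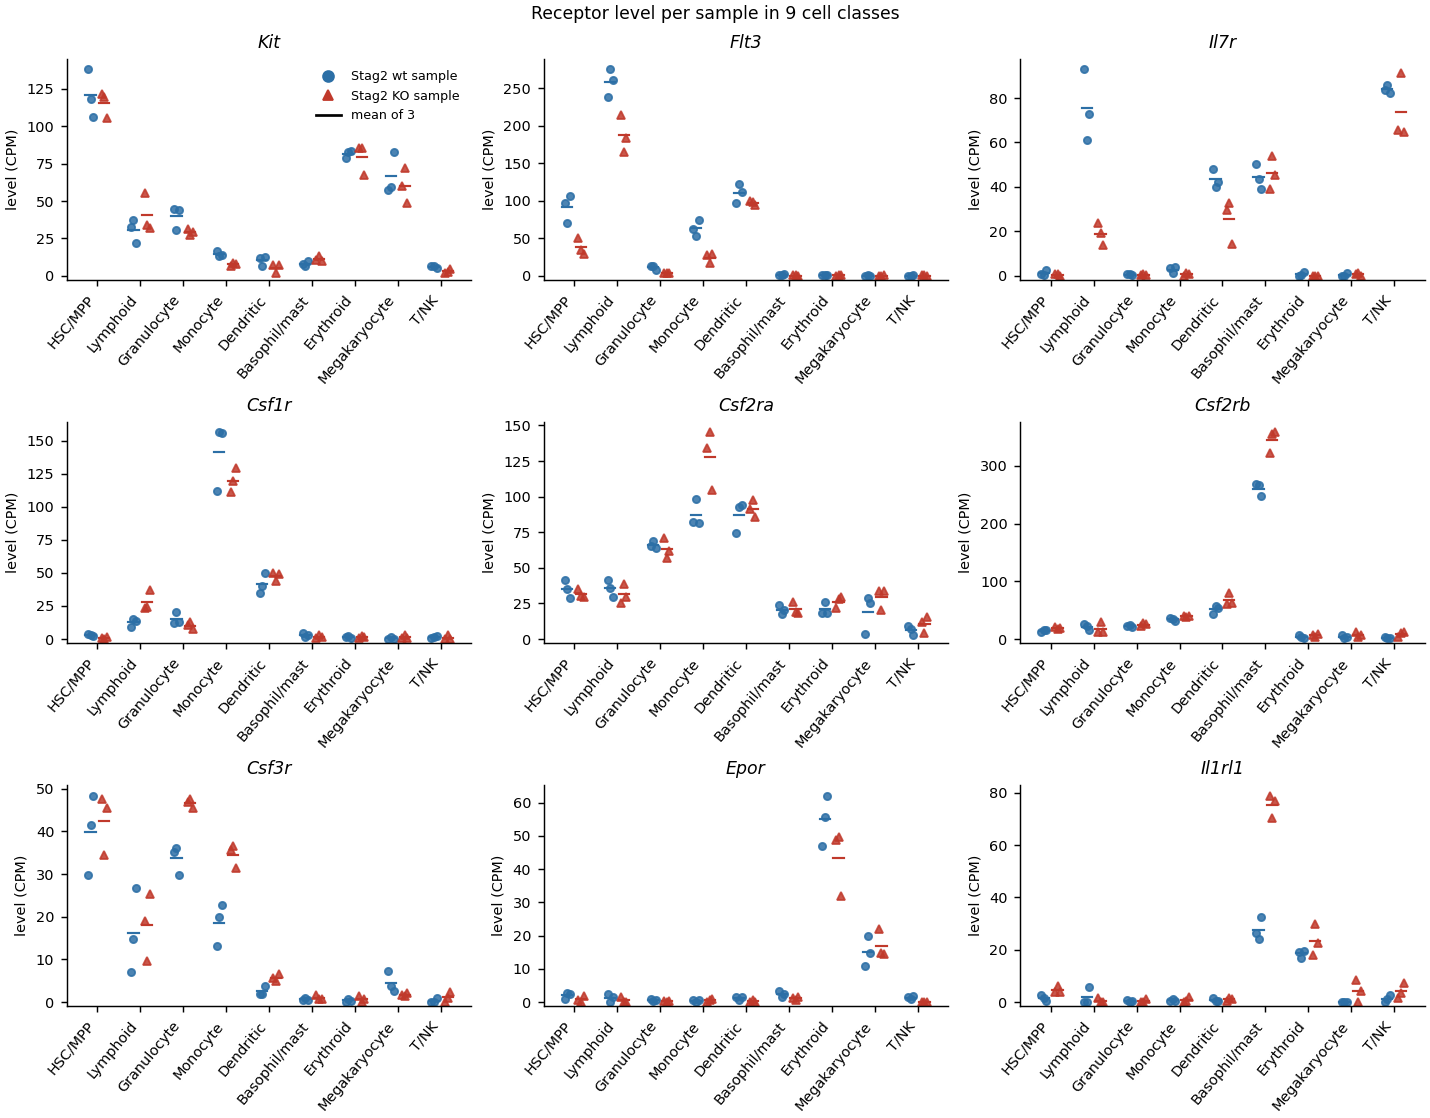
Level of each of the 9 receptors (y axis, CPM, linear from 0, one scale per gene) in the 9 cell classes (x axis); blue circles are the 3 Stag2 wt samples, red triangles the 3 Stag2 KO samples and lines their means. Flt3 in HSC/MPP cells, monocytes and granulocyte progenitors and Il7r in lymphoid progenitors were lower in all 3 KO samples, and Il1rl1 and Csf2rb in basophils/mast cells higher.

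Summed over all kept cells, 6 of the 9 receptors differed between the genotypes at an edgeR adjusted p under 0.05, where 11.1% of the 12634 genes tested did. Flt3, Csf1r, Epor and Il7r were lower in the KO samples, as 7.25% of all genes were, and Csf3r and Il1rl1 higher, as 3.82% were. With the title code as a covariate, Csf1r (-0.60, 0.197), Epor (-0.63, 0.246) and Il1rl1 (0.32, 0.424) did not pass, as log2 fold changes with edgeR adjusted p, and Flt3, Il7r and Csf3r did. The code was entered as XA or other, and WT1 is the only wt sample with XA. That fit therefore sets the KO samples against WT1. It cannot tell an effect of the code from the loss of WT2 and WT3. With cells of at least 2000 UMIs alone, 4 of the 6 passed. Il7r (log2 -0.61, edgeR adjusted p = 0.126) and Csf1r (log2 -0.62, edgeR adjusted p = 0.0911) did not. The call for Il7r also ended without KO1 (edgeR adjusted p = 0.0698) or KO3 (0.0730). For 7 of the 9 the genotypes did not overlap, against 29.9% of all genes. The median log2 fold change of the 9 was 0.086, and that of all genes 0.0083. Csf3r stood at 29.02, 26.1 and 27.7 CPM in the KO samples against 12.6, 15.75 and 17.1 CPM in the wt samples, a log2 fold change of 0.85 ± 0.10 (SE), edgeR adjusted p = 9.97e-04. All 3 KO samples were above all 3 wt samples. Csf2rb, at 66.8, 79.2 and 82.5 CPM in the KO samples against 60.4, 64.5 and 57.9 CPM in the wt samples, had groups that did not overlap but did not pass (0.32 ± 0.0905 (SE), edgeR adjusted p = 0.0522). Kit, at 41.95, 35.1 and 36.55 CPM in the KO samples against 36.6, 32.2 and 38.2 CPM in the wt samples, overlapped between the genotypes (log2 fold change 0.086 ± 0.0938 (SE), edgeR adjusted p = 0.642), as did Csf2ra (0.13 ± 0.0853 (SE), edgeR adjusted p = 0.397).

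Some of the classes that carry the receptors also differed in size, so the same fit was run with every sample's counts reweighted to equal class shares. The shares of basophils/mast cells, early erythroid cells, dendritic cells and lymphoid progenitors overlapped between the genotypes. Flt3 (-0.85, edgeR adjusted p = 5.45e-05), Csf3r (0.42, 0.00262), Epor (-0.64, 0.0345) and Il1rl1 (0.99, 0.00204) still passed, as log2 fold changes with edgeR adjusted p. The log2 fold change of Csf3r was 0.85 before and 0.42 after, and granulocyte progenitors were 17.3, 13 and 15.5% of the kept KO cells and 4.81, 7.12 and 11.2% of the kept wt cells. Csf1r moved from -0.79 to -0.23 (edgeR adjusted p = 0.133) and no longer passed. Monocytes, the class with the most Csf1r, were 4.98, 9.35 and 4.53% of the KO cells and 10.9, 12.7 and 10.99% of the wt cells. Il7r moved from -0.77 to -0.33 (edgeR adjusted p = 0.0796), and T/NK cells were 9.455, 13.2 and 6.68% against 19.9, 15.95 and 15.9%. Csf2rb, by contrast, passed once shares were equal (0.54, edgeR adjusted p = 4.46e-04).

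Within classes, 47 of the 81 pairs of a receptor and a class passed the low-count filter, which a gene can pass through 1 genotype alone. Of those 47, 10 passed the threshold, 5 with the receptor higher and 5 with it lower in the KO samples, and in 17 the genotypes did not overlap. Of all genes tested, 1.77% in HSC/MPP cells, 1.19% in lymphoid progenitors, 3.87% in granulocyte progenitors, 4.95% in monocytes, 10.3% in dendritic cells, 11.9% in basophils/mast cells, 6.14% in early erythroid cells, 0.91% in megakaryocytes and 2.46% in T/NK cells passed. The genotypes did not overlap for 15.4% in HSC/MPP cells, 16% in lymphoid progenitors, 21.3% in granulocyte progenitors, 22.3% in monocytes, 29% in dendritic cells, 29.3% in basophils/mast cells, 25.1% in early erythroid cells, 14.7% in megakaryocytes and 18.3% in T/NK cells of all genes. The median log2 fold change of all genes lay between -0.0022 and 0.0124 in the 9 classes. With the title code as a covariate 5 of the 10 pairs still passed. There too the KO samples are in effect set against WT1 alone, which is assumed to vary like the others. A fit of the XA samples alone makes the same comparison and is not a separate check. With the covariate, the pairs that did not pass were Flt3 in granulocyte progenitors (-1.63, 0.0647), Il7r in dendritic cells (-0.95, 0.101), Csf2rb in basophils/mast cells (0.35, 0.125), Csf3r in granulocyte progenitors (0.38, 0.429) and Csf2ra in monocytes (0.65, 0.104), as log2 fold changes with edgeR adjusted p. The plot of genotype differences shows all 47.

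**Figure D2:**
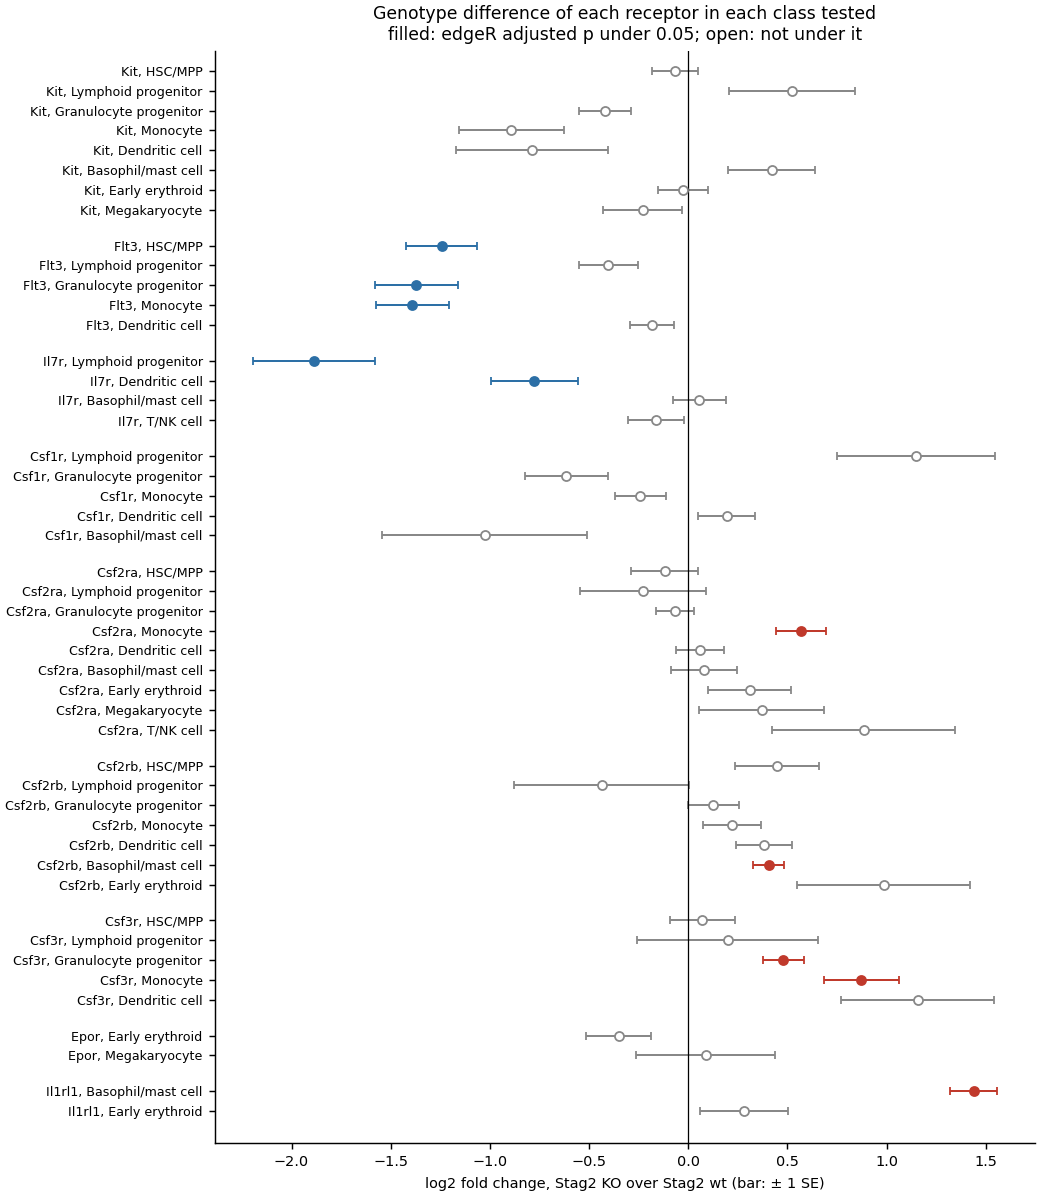
Log2 fold change of each receptor in each class that passed the low-count filter (x axis, Stag2 KO over Stag2 wt; bars are 1 SE of the edgeR fit), grouped by receptor on the y axis. Filled points passed an edgeR adjusted p under 0.05: all 5 filled points of Flt3 and Il7r lie below 0, and all 5 of Csf2ra, Csf2rb, Csf3r and Il1rl1 above it.

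Flt3 fell in 3 of the 5 classes in which it was tested. In the HSC/MPP class it stood at 50.45, 34.5 and 29.3 CPM in the KO samples, against 96.6, 71.1 and 106.5 CPM in the wt samples. Every KO sample was below every wt sample, a 2.37-fold lower level (log2 -1.24 ± 0.18 (SE), edgeR adjusted p = 2.70e-04), in a class where 1.77% of genes passed. In monocytes Flt3 stood at 27.5, 17.2 and 28.75 CPM in the KO samples against 62.2, 53.8 and 74.1 CPM in the wt samples, again without overlap (log2 -1.39 ± 0.18 (SE), edgeR adjusted p = 8.40e-05; 4.95% of genes passed). Granulocyte progenitors held little Flt3, at 4.25, 4.39 and 3.98 CPM in the KO samples against 12.8, 12.7 and 8.385 CPM in the wt samples, and it fell there as well (log2 -1.37 ± 0.21 (SE), edgeR adjusted p = 8.26e-04; 3.87% of genes passed). It did not pass in dendritic cells, at 99.7, 99.2 and 94.1 CPM in the KO samples against 97.7, 122 and 111 CPM in the wt samples, with overlapping groups (log2 -0.18 ± 0.11 (SE), edgeR adjusted p = 0.356). At Leiden resolution 0.5 Flt3 in dendritic cells did pass (log2 -0.45, edgeR adjusted p = 0.0243). Of the dendritic cell clusters, all KO samples were below all wt samples in cluster 6 (log2 -0.29 ± 0.14 (SE), edgeR adjusted p = 0.318) and cluster 11 (log2 -0.46 ± 0.21 (SE), edgeR adjusted p = 0.2355; 4.5% of genes passed), where Flt3 did not pass, and overlapped in clusters 16 and 24. Lymphoid progenitors, the class with the most Flt3, had it at 214, 165 and 183.5 CPM in the KO samples against 239, 275 and 261 CPM in the wt samples. There the groups did not overlap, yet the difference of -0.40 ± 0.15 (SE), edgeR adjusted p = 0.265 on the log2 scale did not pass, in a class where 1.19% of genes did.

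The lower Flt3 was also seen in clusters that were left without a name, a comparison added after the data were seen. In cluster 10, led by Cd34, Adgrg1 and Myct1, Flt3 stood at 29.55, 38.2 and 32.98 CPM in the KO samples against 49.7, 56.9 and 69.1 CPM in the wt samples (log2 -0.88 ± 0.16 (SE), edgeR adjusted p = 0.005135). In cluster 19, led by the cell division genes Nusap1, Top2a and Mki67, it stood at 25.03, 14.5 and 17.5 CPM in the KO samples against 44.6, 65.1 and 70.6 CPM in the wt samples (log2 -1.68 ± 0.22 (SE), edgeR adjusted p = 3.12e-04). Neither pair of groups overlapped. Flt3 was the receptor called in these clusters, with 1.61% and 1.1% of genes passing. The sums of some marker lists of other classes also differed in the named classes where Flt3 was called. In the HSC/MPP class the 12 lymphoid progenitor markers summed to 182 to 200.02 CPM in the KO samples and 269 to 327 CPM in the wt samples. Of them, 7 were lower and 1 higher without overlap. The 16 HSC/MPP markers there summed to 2332 to 2438 CPM in the KO samples and 2150 to 2224 CPM in the wt samples. In the same class the monocyte, granulocyte progenitor, basophil/mast cell, plasma cell and macrophage lists were also lower without overlap. The megakaryocyte and late neutrophil lists were higher, and the other lists overlapped. The lymphoid progenitor list was also lower without overlap in basophils/mast cells (181 to 207 and 229 to 236 CPM in KO and wt samples). So it was in granulocyte progenitors, monocytes and lymphoid progenitors, and it overlapped in the other tested classes. In monocytes the 15 dendritic cell markers summed to 634 to 751 CPM in the KO samples and 1052 to 1471 CPM in the wt samples. Of these, 4 were lower and 1 higher without overlap. In granulocyte progenitors the 14 monocyte markers summed to 1056 to 1186 CPM in the KO samples and 1641 to 1900 CPM in the wt samples. That list was also lower without overlap in basophils/mast cells (1496 to 1650 and 2517 to 2668 CPM in KO and wt samples). It was lower too in HSC/MPP, early erythroid and dendritic cells, and overlapped in lymphoid progenitors, megakaryocytes and T/NK cells. Flt3 did not pass in dendritic cells and was not tested in basophils/mast cells or early erythroid cells. The part of these markers in the Flt3 difference was not tested.

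Kit passed in none of the 8 classes in which it was tested, with log2 fold changes from -0.89 to 0.52. In the HSC/MPP class, where it was highest, it stood at 121, 119 and 105 CPM in the KO samples against 138, 118 and 106 CPM in the wt samples (log2 -0.067 ± 0.12 (SE), edgeR adjusted p = 0.906), and in early erythroid cells at 85.4, 85.5 and 67.5 CPM in the KO samples against 78.7, 82.6 and 83.2 CPM in the wt samples (log2 -0.024 ± 0.13 (SE), edgeR adjusted p = 0.9505). The groups overlapped in both. In monocytes the KO samples, at 6.865, 8.32 and 7.84 CPM, were all below the wt samples, at 16.4, 13.5 and 13.9 CPM, but the difference did not pass (log2 -0.89 ± 0.27 (SE), edgeR adjusted p = 0.0587). Kit in monocytes passed with cells of at least 2000 UMIs alone (log2 -0.97, edgeR adjusted p = 0.0452) and with no filter on low counts (log2 -0.90, edgeR adjusted p = 0.0440). Granulocyte progenitors had Kit at 31.6, 27.6 and 29.2 CPM in the KO samples against 44.9, 30.7 and 43.99 CPM in the wt samples, with overlapping groups (log2 -0.42 ± 0.13 (SE), edgeR adjusted p = 0.0916). There it passed without WT2 (log2 -0.59, edgeR adjusted p = 0.0111), at Leiden resolution 2.0 (log2 -0.53, edgeR adjusted p = 0.0371) and with no filter on low counts (log2 -0.41, edgeR adjusted p = 0.0146). Over the whole basophil/mast cell class Kit overlapped, at 10.8, 13.5 and 9.78 CPM in the KO samples against 7.99, 6.62 and 10.1 CPM in the wt samples. Within single clusters, Kit was lower in cluster 9 of that class, led by Gzmb, Lmo4 and Rnase12. It stood there at 22.3, 31.7 and 20.4 CPM in the KO samples against 37.4, 41.6 and 76.04 CPM in the wt samples (log2 -1.26 ± 0.29 (SE), edgeR adjusted p = 0.005775; 12.8% of genes passed). That cluster held 294, 150 and 278 KO cells and 28, 43 and 72 wt cells.

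Il7r fell most in lymphoid progenitors, at 23.6, 19.4 and 13.8 CPM in the KO samples, against 92.9, 61.01 and 72.6 CPM in the wt samples. The KO values rest on 15, 4 and 6 UMIs and the wt values on 40, 41 and 49. No KO sample reached the lowest wt sample, and the level was 3.70-fold lower (log2 -1.89 ± 0.31 (SE), edgeR adjusted p = 6.28e-04). The 12 lymphoid progenitor markers summed to 1984 to 2416 CPM in the KO samples and 3025 to 3333 CPM in the wt samples in the same cells, and the 14 B cell markers to 802 to 1250 CPM in the KO samples and 887 to 1354 CPM in the wt samples. Their part in the Il7r difference was not tested. With classes taken from marker scores of single cells in place of clusters, Il7r in lymphoid progenitors did not pass (log2 -0.59, edgeR adjusted p = 0.174). At Leiden resolution 0.5 no cluster was named lymphoid progenitor, so the pair could not be tested there. Dendritic cells had Il7r at 29.7, 32.7 and 14.4 CPM in the KO samples against 47.9, 40.03 and 42.3 CPM in the wt samples, without overlap (log2 -0.78 ± 0.22 (SE), edgeR adjusted p = 0.0351; 10.3% of genes passed). Leaving out KO3 gave -0.46 (edgeR adjusted p = 0.0959), and the call also ended without WT1, WT2 or WT3.

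Inside the dendritic cell class the difference in Il7r passed in cluster 6, whose leading genes include Siglech, a marker of plasmacytoid dendritic cells, and Cox6a2. Il7r stood there at 65.3, 63.05 and 33.6 CPM in the KO samples against 135, 101 and 124 CPM in the wt samples (log2 -1.12 ± 0.20 (SE), edgeR adjusted p = 0.00250; 4.11% of genes passed). T/NK cells, with 65.8, 91.1 and 64.8 CPM in the KO samples against 83.4, 85.98 and 82.4 CPM in the wt samples, showed no call (log2 -0.16 ± 0.14 (SE), edgeR adjusted p = 0.718; 2.46% of genes passed), nor did basophils/mast cells, with 38.95, 53.7 and 45.6 CPM in the KO samples against 50.5, 43.8 and 39.2 CPM in the wt samples (log2 0.057 ± 0.13 (SE), edgeR adjusted p = 0.836). In both the groups overlapped. The unnamed cluster 20, led by Gata3, Icos and Arg1, had a high level of Il7r, at 415, 332 and 387 CPM in the KO samples against 311.5, 333 and 436 CPM in the wt samples, and of Il1rl1, at 287, 266 and 253 CPM in the KO samples against 407, 207 and 252 CPM in the wt samples, and the groups overlapped for both. B cells were too few for a test. Their Il7r stood at 157, 202 and 90.4 CPM in the wt samples, from 20, 45 and 26 UMIs in 56, 78 and 114 cells. The 20 KO cells of the class gave 0 Il7r UMIs of 48565, which allows up to 61.8 CPM (3 counts, counting error only).

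Csf1r, at chr18:61100598-61132149 on the plus strand and overlapped by Hmgxb3 on the other strand, passed in none of its 5 tested classes. Monocytes had it at 111, 119 and 129 CPM in the KO samples against 112, 156 and 155.5 CPM in the wt samples (log2 -0.24 ± 0.13 (SE), edgeR adjusted p = 0.332) and dendritic cells at 49.9, 43.95 and 49.1 CPM in the KO samples against 34.9, 40.03 and 49.6 CPM in the wt samples (log2 0.19 ± 0.15 (SE), edgeR adjusted p = 0.462), with overlapping groups in both. In lymphoid progenitors the KO samples were higher, at 23.6, 24.25 and 36.7 CPM in the KO samples against 9.29, 14.9 and 13.3 CPM in the wt samples, from 15, 5 and 16 UMIs against 4, 10 and 9. Those groups did not overlap, but the difference did not pass (log2 1.15 ± 0.40 (SE), edgeR adjusted p = 0.2355). Granulocyte progenitors had Csf1r at 10.51, 12.5 and 7.56 CPM in the KO samples against 11.9, 20.2 and 12.6 CPM in the wt samples, with overlapping groups (log2 -0.61 ± 0.21 (SE), edgeR adjusted p = 0.132). Csf1r there passed at Leiden resolution 2.0 (log2 -1.32, edgeR adjusted p = 0.0265) and with no filter on low counts (log2 -0.61, edgeR adjusted p = 0.00682). In dendritic cells it passed, higher in the KO samples, at Leiden resolution 0.5 (log2 0.56, edgeR adjusted p = 0.0263).

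Csf3r rose in 2 of its 5 tested classes. In monocytes it stood at 35.6, 36.6 and 31.4 CPM in the KO samples, against 13.02, 19.9 and 22.7 CPM in the wt samples. The groups did not overlap, a 1.83-fold higher level (log2 0.87 ± 0.19 (SE), edgeR adjusted p = 0.00773). The call ended when likely doublets were kept (log2 0.50, edgeR adjusted p = 0.461) and at Leiden resolutions 0.5 (0.76, edgeR adjusted p = 0.0851) and 2.0 (0.54, edgeR adjusted p = 0.371). Within cluster 5, the monocyte cluster led by F13a1 and Ms4a6c, Csf3r stood at 22.9, 30.3 and 29.4 CPM in the KO samples against 10.7, 11.1 and 11.1 CPM in the wt samples (log2 1.33 ± 0.23 (SE), edgeR adjusted p = 0.00138; 2.52% of genes passed). In cluster 12 it stood at 118, 19.4 and 34.03 CPM in the KO samples against 22.1, 77.03 and 89.3 CPM in the wt samples, with overlapping groups (log2 -0.12 ± 0.54 (SE), edgeR adjusted p = 0.973; 2.2% of genes passed). Cluster 27, with under 20 cells of every wt sample, was not tested, and its Csf3r levels overlapped, at 63.1, 58.1 and 40.6 CPM in the KO samples against 48.3, 51.7 and 93.8 CPM in the wt samples. The 10 granulocyte progenitor markers in monocytes summed to 6575 to 7928 CPM in the KO samples and 5141 to 5978 CPM in the wt samples, and the 13 late neutrophil markers to 373 to 1365 CPM in the KO samples and 79.4 to 251 CPM in the wt samples. Late neutrophil markers were also higher without overlap in HSC/MPP cells (150 to 357 and 32.8 to 103 CPM in KO and wt samples). They were higher too in T/NK, early erythroid, dendritic and basophil/mast cells and megakaryocytes, and overlapped in granulocyte and lymphoid progenitors. Granulocyte progenitor markers were also higher in T/NK cells (666 to 807 and 431 to 644 CPM) but lower in HSC/MPP cells. The part of either list in the Csf3r difference was not tested. T/NK cells, which should lack Csf3r, held it at 0, 0.911 and 2.40 CPM in the KO samples against 0, 0 and 0.854 CPM in the wt samples.

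In granulocyte progenitors Csf3r stood at 46.95, 47.65 and 45.6 CPM in the KO samples against 35.2, 36.1 and 29.9 CPM in the wt samples, without overlap (log2 0.48 ± 0.10 (SE), edgeR adjusted p = 0.0130). The call ended without KO1 (edgeR adjusted p = 0.0559) and without WT3 (0.0911). The dividing cells of the class, cluster 15, had Csf3r at 39.5, 40.05 and 40.8 CPM in the KO samples against 14.3, 22.3 and 22.4 CPM in the wt samples (log2 0.93 ± 0.18 (SE), edgeR adjusted p = 0.0106; 1.23% of genes passed). In cluster 3, led by Mpo and Elane, it stood at 41.1, 42.75 and 42.9 CPM in the KO samples against 42.2, 36.02 and 28.4 CPM in the wt samples, with overlapping groups (log2 0.30 ± 0.13 (SE), edgeR adjusted p = 0.315; 2.63% of genes passed). Cluster 13, led by Wfdc21 and Fcnb, made up 259, 73 and 167 of the 748, 310 and 563 KO cells and 13, 43 and 199 of the 116, 303 and 715 wt cells, and its Csf3r levels overlapped (65.3, 74.6 and 55.6 CPM in the KO and 64.7, 74.6 and 42.6 CPM in the wt samples). Csf3r did not pass in the HSC/MPP class, at 47.5, 34.5 and 45.4 CPM in the KO samples against 29.9, 41.5 and 48.4 CPM in the wt samples (log2 0.071 ± 0.17 (SE), edgeR adjusted p = 0.936). Dendritic cells had low levels, 5.75, 4.82 and 6.60 CPM in the KO samples against 1.99, 1.89 and 3.84 CPM in the wt samples, without overlap and without a call (log2 1.16 ± 0.38 (SE), edgeR adjusted p = 0.0698). They passed at Leiden resolution 0.5 (log2 1.60, edgeR adjusted p = 0.00860) and with doublets kept (log2 1.29, edgeR adjusted p = 0.0319).

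Csf2ra, the ligand-binding alpha chain, passed in monocytes alone of its 9 tested classes. It stood there at 134, 145 and 105 CPM in the KO samples against 81.9, 98.2 and 81.7 CPM in the wt samples, without overlap (log2 0.57 ± 0.13 (SE), edgeR adjusted p = 0.0107). The difference did not pass without KO2 (edgeR adjusted p = 0.0833), without WT3 (0.0755) or with doublets kept (log2 0.30, edgeR adjusted p = 0.292). Nor did it pass at Leiden resolution 0.5 (log2 0.24, edgeR adjusted p = 0.386) or 2.0 (log2 0.38, edgeR adjusted p = 0.136). In cluster 5 Csf2ra stood at 98.8, 119 and 76.1 CPM in the KO samples against 69.5, 72.8 and 60.2 CPM in the wt samples (log2 0.57 ± 0.15 (SE), edgeR adjusted p = 0.0377), and in cluster 12 at 167, 107 and 204 CPM in the KO samples against 176.5, 261.5 and 208 CPM in the wt samples, with overlapping groups and the opposite sign (log2 -0.32 ± 0.26 (SE), edgeR adjusted p = 0.698). The other 8 classes had log2 fold changes from -0.23 to 0.88 and edgeR adjusted p from 0.450 to 0.879.

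The beta chain Csf2rb, which also serves the receptors of interleukin 3 and interleukin 5, rose in basophils/mast cells. It stood at 322, 354.5 and 358 CPM in the KO samples, against 268, 266 and 247 CPM in the wt samples. The groups did not overlap, though the change was small, 1.32-fold (log2 0.40 ± 0.0799 (SE), edgeR adjusted p = 0.00323; 11.9% of genes passed). In the clusters of the class with at least 20 cells of every sample, the difference was larger. Cluster 9 had Csf2rb at 245, 183 and 237 CPM in the KO samples against 95.7, 70.1 and 61.3 CPM in the wt samples (log2 1.52 ± 0.19 (SE), edgeR adjusted p = 9.22e-06), and cluster 23, led by Prss34, Mcpt8 and histone genes, at 194, 167 and 155 CPM in the KO samples against 98.01, 112 and 104 CPM in the wt samples (log2 0.76 ± 0.17 (SE), edgeR adjusted p = 0.00750; 3.97% of genes passed). The relative Csf2rb2 stood in cluster 23 at 70.25, 49.3 and 42.1 CPM in the KO samples against 18.4, 16.9 and 24.1 CPM in the wt samples (log2 1.52 ± 0.32 (SE), edgeR adjusted p = 0.00390), but over the whole class it overlapped between the genotypes (log2 0.13 ± 0.21 (SE), edgeR adjusted p = 0.754). Csf2rb levels differed widely between clusters: the wt samples had 421, 463 and 422 CPM in cluster 0, which holds most of their basophils/mast cells, and 124, 89.5 and 103 CPM in cluster 14. Cluster 2, which holds most of the KO cells of the class, had 477, 574 and 565 CPM in the KO samples. Dendritic cells had Csf2rb at 60.4, 79.9 and 63.1 CPM in the KO samples against 43.9, 56.5 and 53.8 CPM in the wt samples, without overlap and without a call (log2 0.38 ± 0.14 (SE), edgeR adjusted p = 0.103).

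Il1rl1 had the largest rise of the 10 called pairs. In basophils/mast cells it stood at 78.95, 70.3 and 76.99 CPM in the KO samples, against 26.5, 24.3 and 32.4 CPM in the wt samples, from 381, 203 and 370 UMIs against 63, 121 and 166. The lowest KO sample was above the highest wt sample, and the level was 2.71-fold higher (log2 1.44 ± 0.12 (SE), edgeR adjusted p = 1.07e-06). Il1rl1 was also higher in cluster 23, at 92.98, 79.7 and 81.5 CPM in the KO samples against 30.6, 26.5 and 36.1 CPM in the wt samples (log2 1.52 ± 0.25 (SE), edgeR adjusted p = 2.42e-04), and in cluster 9, at 54.2, 61.6 and 64.3 CPM in the KO samples against 16.6, 23.4 and 44.15 CPM in the wt samples (log2 0.91 ± 0.27 (SE), edgeR adjusted p = 0.0311). In the main wt clusters it stood at 22.3, 23.02 and 34.6 CPM (cluster 0) and 31.3, 23.8 and 22.8 CPM (cluster 14), and in the main KO cluster, cluster 2, at 109, 82.6 and 93.4 CPM in the KO samples. The 14 measured basophil/mast cell markers summed to 48577 to 55012 CPM in the KO samples and 92448 to 102110 CPM in the wt samples, and 9 of them were lower without overlap; their part in the receptor differences was not tested. Early erythroid cells, the other class in which Il1rl1 was tested, had it at 17.9, 29.8 and 22.7 CPM in the KO samples against 19.3, 17.02 and 19.7 CPM in the wt samples, with overlapping groups (log2 0.28 ± 0.22 (SE), edgeR adjusted p = 0.520). The plot of basophil/mast cell clusters sets these levels side by side.

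**Figure D3:**
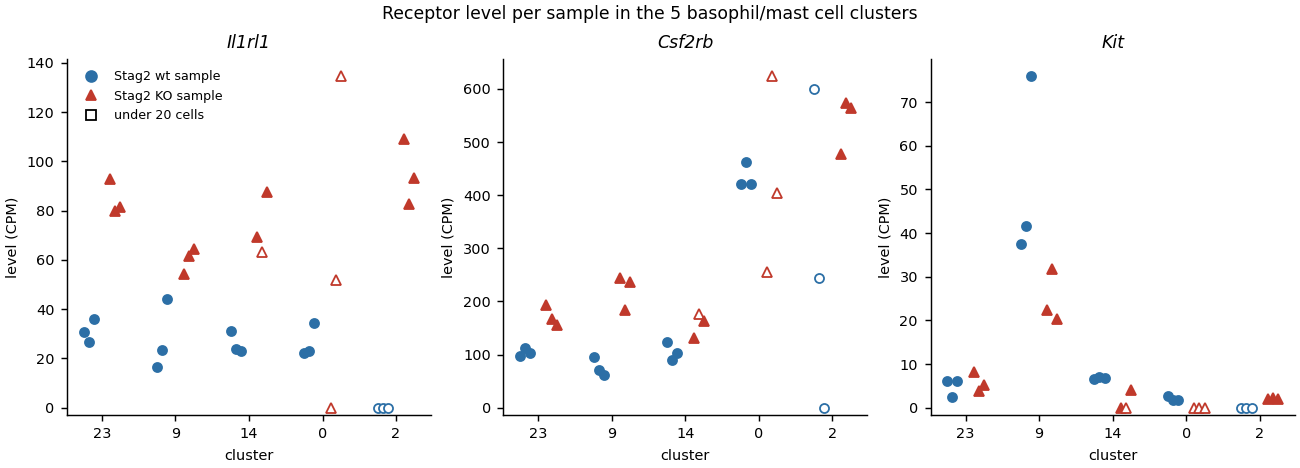
Level (y axis, CPM, linear from 0) of Il1rl1, Csf2rb and Kit in the 5 clusters of the basophil/mast cell class (x axis); blue circles are Stag2 wt and red triangles Stag2 KO samples, open where the sample has under 20 cells in the cluster. In clusters 23 and 9 all KO samples are above all wt samples for Il1rl1 and Csf2rb, and in cluster 9 all are below for Kit.

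Epor, tested in 2 classes, passed in neither. Early erythroid cells had it at 48.7, 49.7 and 31.8 CPM in the KO samples against 47.1, 55.6 and 62.2 CPM in the wt samples, with KO3 lowest and overlapping groups (log2 -0.35 ± 0.17 (SE), edgeR adjusted p = 0.2505; 6.14% of genes passed). Megakaryocytes had it at 21.9, 14.65 and 14.4 CPM in the KO samples against 10.8, 19.9 and 14.6 CPM in the wt samples (log2 0.088 ± 0.35 (SE), edgeR adjusted p = 0.9665). Over all kept cells the call for Epor ended without KO3 (log2 -0.59, edgeR adjusted p = 0.0901), WT2 (0.0540) or WT3 (0.110).

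The share of cells with at least 1 UMI was described after thinning every cell to 2000 UMIs and leaving out shallower cells; at these levels the share follows the mean level, so it cannot tell more cells from more transcript per cell. Flt3 was found in 8.83, 4.14 and 6.58% of HSC/MPP cells of the KO and 17.2, 13.3 and 18.5% of those of the wt samples (unthinned 24.4, 19.4 and 15.3% and 38.6, 34.9 and 36.3%). In T/NK cells, which should lack Flt3, the thinned share was at most 0.156% in any sample (median UMIs before thinning 2266 to 3302, and 5092 to 7726 in the HSC/MPP class). Thinning left out 9, 6 and 6 KO and 2, 2 and 12 wt HSC/MPP cells. Il1rl1 was found in 15.45, 13.6 and 15.4% of KO and 5.25, 4.37 and 5.58% of wt basophils/mast cells (unthinned 28.5, 27.8 and 29.6% and 8.48, 9.515 and 8.21%), and in at most 0.355% of granulocyte progenitors (median UMIs 2026 to 4114 and 12206 to 20198). Thinning left out 99, 28 and 59 KO and 102, 129 and 876 wt basophils/mast cells. Il7r was found in 4.04, 6.06 and 0% of KO and 11.3, 9.30 and 10.53% of wt lymphoid progenitors (unthinned 8.18, 5.71 and 6.85% and 29.6, 23.4 and 17.9%). The 0 of KO3 comes from 63 cells; a count of 0 there allows a share of up to 4.76% (3 counts), and the exact 95% interval in the plot of shares reaches 5.69%. Both concern cells with a UMI among 2000, not cells that express Il7r. Granulocyte progenitors held Il7r in at most 0.2825% of cells, and 11, 2 and 10 KO and 9, 8 and 18 wt lymphoid progenitors (median UMIs 4604 to 7099) were left out. Csf3r was found in 7.77, 9.09 and 7.895% of KO and 2.27, 5.59 and 3.095% of wt monocytes (unthinned 22.3, 21.1 and 17.6% and 8.78, 13.15 and 9.52%). T/NK cells held Csf3r in at most 0.156%, and 22, 14 and 13 KO and 42, 93 and 284 wt monocytes (median UMIs 3540 to 6790) were left out. In these 4 pairs the thinned shares of the genotypes did not overlap, as the plot of shares shows, in the direction of the CPM. Flt3 in monocytes did overlap after thinning, at 8.81, 2.39 and 3.95% in KO and 10.9, 7.16 and 15.5% in wt samples, and Csf2ra in monocytes as well, at 21.8, 27.75 and 20.4% and 20, 21.25 and 13.6%.

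**Figure D4:**
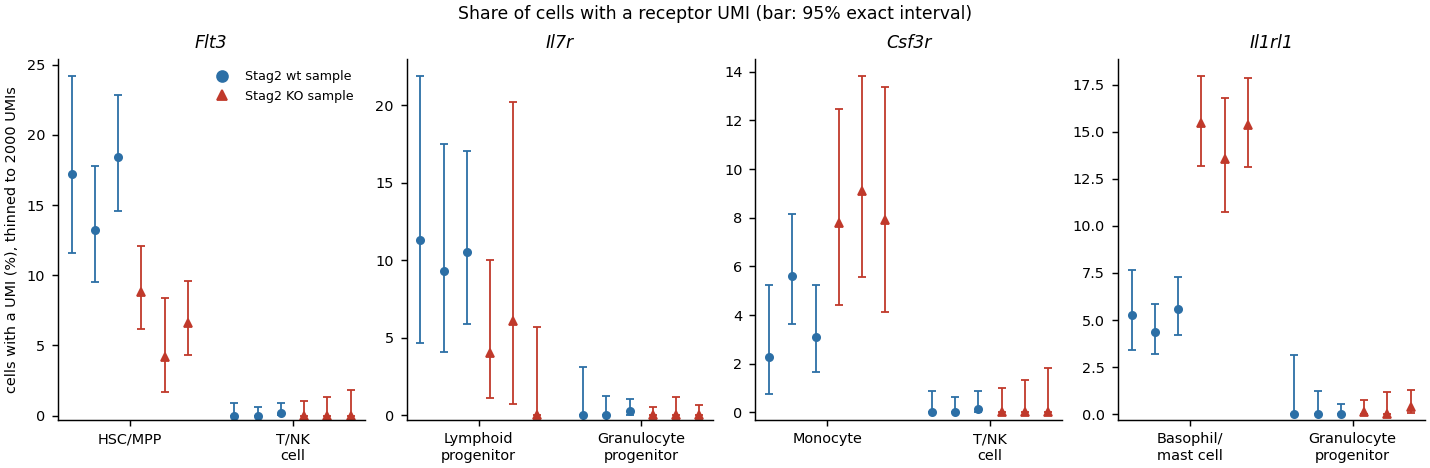
Share of cells with at least 1 UMI of Flt3, Il7r, Csf3r or Il1rl1 (y axis, percent of cells thinned to 2000 UMIs) in the class of the difference and, to its right, in a class with little of the gene (x axis). Points are samples, blue circles Stag2 wt and red triangles Stag2 KO, and bars 95% exact binomial intervals, which cover counting error only; no KO point lies among the wt points in the 4 classes of the differences.

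A call in one class and none in another does not show that the classes differ, so the difference of each class from the mean of the others was compared between genotypes with limma. Csf2ra was the receptor that passed the low-count filter in every class, and in its 9 classes 0 passed (2 at an unadjusted p under 0.05; smallest limma adjusted p = 0.240). A version added after the data were seen covered all 47 pairs, each class set against the other classes in which the receptor passed the filter; 0 of the 47 passed, and 15 had an unadjusted p under 0.05. Over all genes and classes, 0.414% of pairs passed in the first version and 0.0906% in the second, at the adjusted threshold. The share of all genes at an unadjusted p under 0.05 was not counted, so the 2 and the 15 cannot be judged against it. The smallest adjusted values were those of Flt3 in dendritic cells (0.94 on the log2 scale, less of a fall than elsewhere, limma adjusted p = 0.0739), Il1rl1 in basophils/mast cells (1.15, 0.0922) and Il7r in basophils/mast cells (0.99, 0.0983). The receptor differences were thus not shown to be particular to the classes in which they were called.

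The rest of the signalling chain was described over all kept cells from 5 lists, beside the 11.1% of genes that passed in all. The values of these lists were not reweighted to equal class shares. Of 27 other receptor chains tested, 6 were lower in the KO samples, with a median log2 fold change of -0.22. Il18r1, of the interleukin 18 receptor, fell (10 ± 1.82 and 22.2 ± 0.768 CPM in KO and wt samples, log2 fold change -1.17, edgeR adjusted p = 3.93e-04). Within T/NK cells Il18r1 was higher instead (log2 0.69, edgeR adjusted p = 0.00517). It stood there at 153, 156 and 144 CPM in the KO samples against 79.2, 95.9 and 108 CPM in the wt samples. Il6st, the signal chain of the interleukin 6 family, fell as well (7.70 ± 2.25 and 17.9 ± 3.025 CPM in KO and wt samples, log2 fold change -1.24, edgeR adjusted p = 0.00300). Gfra1 was lower from very few counts (0.0977 ± 0.0659 and 0.732 ± 0.165 CPM in KO and wt samples, log2 fold change -2.70, edgeR adjusted p = 0.005735). Csf2rb2 did not differ beyond the spread (14.55 ± 2.87 and 15.4 ± 1.54 CPM in KO and wt samples, log2 fold change -0.062, edgeR adjusted p = 0.848). Of 7 ligands tested, Csf1, the ligand of Csf1r, fell (12.6 ± 1.765 and 20.9 ± 0.08075 CPM in KO and wt samples, log2 fold change -0.74, edgeR adjusted p = 0.001755) and Tslp rose (15.5 ± 1.29 and 10.48 ± 2.54 CPM in KO and wt samples, log2 fold change 0.55, edgeR adjusted p = 0.0486); their median was -0.20. The 16 kinases and STATs tested had a median of -0.044. Of 22 inhibitors and adaptors, 3 fell, Dok1, Socs1 and Cblb, with log2 fold changes of -0.39, -0.44 and -0.61 and a list median of -0.047. Of 18 targets, 7 fell and 0 rose, with a median of -0.22. Among them were the cell cycle genes Cdkn1a (6.72 ± 0.809 and 12.55 ± 0.448 CPM in KO and wt samples, log2 fold change -0.90, edgeR adjusted p = 9.82e-04) and Ccnd1 (18.2 ± 2.38 and 35.85 ± 7.16 CPM in KO and wt samples, log2 fold change -0.97, edgeR adjusted p = 0.00271). The survival genes Bcl2l1 and Bcl2 fell by 0.74 and 0.53 on the log2 scale (both edgeR adjusted p = 0.003375).

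Inside the classes with receptor calls, some of these genes passed too; those named next were chosen after their values were seen. In basophils/mast cells, where Il1rl1 and Csf2rb were higher, Il18r1 fell by 2.09 on the log2 scale (edgeR adjusted p = 7.20e-07) and Crlf2, the receptor of Tslp, by 0.50 (0.00346). Cbl, which marks activated receptors for degradation, rose there by 0.93 (edgeR adjusted p = 0.00177). In monocytes the adaptor Dok2 rose by 1.80 (edgeR adjusted p = 0.00160) and Ccnd1, a cyclin, changed by -1.06 (edgeR adjusted p = 6.33e-04). Dok2 was also higher in granulocyte progenitors, at 0.98 (edgeR adjusted p = 0.00272). It was higher too in early erythroid cells, at 1.21 (edgeR adjusted p = 0.00300), and T/NK cells, at 0.69 (edgeR adjusted p = 0.00554), which had no receptor call. In the HSC/MPP class Pim1, a kinase induced by cytokines, rose by 0.49 (edgeR adjusted p = 0.00529) and Ifngr1 changed by -0.77 (edgeR adjusted p = 0.002175). Pim1 was also higher in granulocyte progenitors (0.72, edgeR adjusted p = 0.00454), basophils/mast cells (0.34, 0.0357) and early erythroid cells (0.56, 0.0185). Ifngr1 was higher in T/NK cells (0.49, edgeR adjusted p = 0.0164). In lymphoid progenitors, where Il7r was lower, Bcl2, a survival gene, was higher by 0.70 (edgeR adjusted p = 0.00931). Bcl2 was also higher in basophils/mast cells, by 0.68 (edgeR adjusted p = 2.62e-04), where Il7r did not pass. It was lower in monocytes, at -0.75 (edgeR adjusted p = 0.00287), dendritic cells, at -0.85 (edgeR adjusted p = 0.004965), and granulocyte progenitors, at -0.60 (edgeR adjusted p = 0.00887).

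The genes whose levels most resembled those of a receptor were ranked among 6909 genes by Pearson's r of log2(CPM + 5) over the 54 sums of 9 classes in 6 samples. The sums of 1 sample share a library, and no test was made. Kit was most like Muc13, Tfdp2 and Serf1 (r = 0.925 to 0.911), Flt3 like H2afy, Snn and Marcks (0.930 to 0.927) and Il7r like Slc9a9, Stk17b and Tecpr1 (0.912 to 0.888). For Csf1r the genes were Lrp1, Ly86 and AI839979 (0.942 to 0.938), for Csf3r Plppr3, Gm1673 and Prtn3 (0.908 to 0.848) and for Csf2ra Erp29, Atp5c1 and Akr1a1 (0.888 to 0.866). Csf2rb was most like Il3ra, Cebpa and Cyp4f18 (0.944 to 0.907); Il3ra encodes the interleukin 3 receptor alpha chain, which pairs with Csf2rb. Epor was most like Aqp1, Pdzph1 and Smim1 (0.969 to 0.965), and Il1rl1 like Aqp9, Csrp3 and Arap3 (0.905 to 0.861). Between receptors, the highest r was 0.790, of Csf1r with Csf2ra, and the lowest -0.688, of Kit with Il7r.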

How the data were processed

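As deposited by the authors, the tables hold raw UMI counts, whole numbers for each gene in each cell with no normalization, from 10x Chromium 3' v2 libraries of 6 mice, per the labels' protocols. The sources used here do not give the aligner, the counting program or the genome build. The authors' cluster column was not used. Symbols were matched without regard to case, and 17438 of 18011 matched GENCODE M21.

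Cells under 500 genes were dropped, as were those with the highest doublet scores of a sample, 0.8% for every 1000 cells it held. A limit of 20% mitochondrial UMIs was set as well, and 0 cells of any sample were above it. Cells were clustered on 2000 variable genes without the receptors (30 principal components, 15 neighbours, Leiden resolution 1.0, seed 1) and clusters were named from 204 markers of 16 cell types. UMIs were summed per sample and class and tested with edgeR 4.0.16 (filterByExpr, TMM, quasi-likelihood test of KO against wt, 3 mice each), with Benjamini-Hochberg adjustment over all genes of a class. Classes with under 20 cells in a sample were not tested. A 3 against 3 permutation test cannot go below p = 0.1 and was not used. Class differences used limma 3.58.1, and DESeq2 1.42.0 was an alternative. Other tools were Python 3.11.15, scikit-learn 1.9.0, leidenalg 0.10.2 and R 4.3.3. The tests were run on data simulated under their own assumptions, which cannot show how well those assumptions hold in these data.

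The design text speaks of 3 mice per genotype, so the p-values set the genotype difference against the spread between samples of different mice. The title code differs among the wt samples, so that spread can hold whatever the code marks. Sample numbers follow accession order. The receptors, the marker and pathway lists and the tests were chosen with earlier results of these data known. The text names all 9 receptors, up to 4 genes per pathway list with the smallest p over all kept cells, Csf2rb2, and 3 genes most like each receptor. Some results on genes of the pathway lists are not reported here. Intervals and limits on counts of 0 cover counting error only.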

Additional observations from a re-analysis of the deposited data

How the results depend on the processing

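Of 864 fits of single receptors under the alternatives, 798 stayed on the same side of the threshold, 50 lost the call, 16 gained one and 0 reversed. The sign differed in 31 where neither fit passed. Only results called in the main fit could lose a call, that is 6 receptors over all kept cells and 10 pairs within classes. The 50 losses all came from these, so they are not to be set against the 864. Over all kept cells, 6 receptors passed, and 3 did with the title code prefix as a covariate. That fit in effect sets the KO samples against WT1, the only wt sample with prefix XA, which is assumed to vary like the KO samples. Fitting the XA samples alone is nearly the same check. Csf1r had a log2 fold change of -0.59 there and -0.60 with the covariate. Leaving out 1 sample gave 2 (without KO3) to 6 receptors, with 3 without WT2. Within classes, 10 pairs passed. With the prefix as a covariate 5 did, and with 1 sample left out 7 to 10 did. The clusters left unnamed, tested instead, gave 2. The difference between classes gave 0 pairs and, with the prefix, 1, Csf2ra in megakaryocytes, where WT1 has 1 Csf2ra UMI. With the prefix as a covariate, Flt3 in granulocyte progenitors, Il7r in dendritic cells, Csf2rb in basophils/mast cells, Csf3r in granulocyte progenitors and Csf2ra in monocytes no longer passed. Flt3 in monocytes did not pass with doublets kept (log2 -1.01, edgeR adjusted p = 0.0768). Flt3 in the HSC/MPP class and Il1rl1 in basophils/mast cells passed under every alternative run for them. The cause of the changes was not tested. No paired analysis was possible because the labels give no number that ties a KO to a wt sample. Median UMIs per cell were lowest in WT3 (3471) and total UMIs lowest in WT1 (15555586), and the low counts of Il7r in lymphoid progenitors limit its precision.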
